A study of Homo sapiens with 4 samples.

Results

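The genes described here are the ligands and receptors first known from axon guidance: the semaphorins with their plexin and neuropilin receptors, the ephrins with the EPH receptor kinases, the SLIT proteins with the ROBO receptors, and the netrins with DCC, neogenin and the UNC5 receptors. They were chosen with earlier results of these data known, although the rule itself uses no measured value. The rule took them by family symbol from the deposited gene table, with antisense symbols left out. This gave 72 of the 58233 genes in the table, 37 of them ligands and 35 receptors or co-receptors.

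In the developing nervous system these proteins steer growing axons by attraction and repulsion, and most of their receptors act on the actin cytoskeleton through small GTPases. The same proteins are used outside the nervous system. In epithelia, ephrins and EPH receptors sort cells and hold tissue boundaries, semaphorins and plexins regulate adhesion and migration, and neuropilins also bind vascular endothelial growth factors. Netrin and SLIT signals take part in the growth and layering of mammary ducts.

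RNA was sequenced from MCF10AT, a human mammary epithelial cell line made from MCF10A cells and, per its label, transformed with HRasG12V, an activated RAS. All 4 libraries therefore carry this oncogene, and all came from cultures kept in a medium with horse serum, cholera toxin, hydrocortisone, insulin and epidermal growth factor. There were 2 libraries with the genotype Bromo+/-, a label that the sources used here do not explain further, and 2 of the Non-target control. The series title and design name a knockdown of EP300, a histone acetyltransferase that contains a bromodomain, and the protocol describes lentiviral shRNA and puromycin, while the sample labels give Bromo+/-. Nothing in the labels says whether the replicates were separate cultures or whether the Bromo+/- cells are 1 clone, so the spread that p-values are based on is that of these libraries alone and may be technical.

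The libraries held 10835237 to 11975396 counts, and the guidance genes took 0.240% to 0.255% of them. EP300 had 121 and 126 scaled CPM (counts normalised to library size and composition) in the Bromo+/- libraries and 106 and 111 in the controls. It was thus not lower in the Bromo+/- libraries (log2 fold change 0.19, SE 0.06, edgeR adjusted p = 0.00701), and directions below rest on the labels; this call was lost without control replicate 1 (adjusted p = 0.162) and with DESeq2. The 8 markers of epithelial cells, the labelled type, were all detected and all fell, from a summed 9234 and 9563 scaled CPM in the controls to 1206 and 1282 in the Bromo+/- libraries. In bulk RNA, fewer cells of a type and less RNA per cell cannot be told apart.

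Guidance genes changed in both directions. Of the 72 members, 48 had enough counts to be tested, and 18 rose and 22 fell in the Bromo+/- libraries at an adjusted p below 0.05 (edgeR quasi-likelihood test, Benjamini-Hochberg adjustment over all 13179 genes tested). The background was high: 53.5% of all genes tested passed, 26.4% higher and 27.1% lower, against 83.3% of the tested members. At least 2-fold changes were found for 10 members that rose and 12 that fell, together 45.8% of those tested, where 15% of all genes tested changed that much (7.44% higher, 7.53% lower). The median log2 fold change of the tested members was -0.07, beside 0.01 for all genes, and the median of its absolute size was 0.73, beside 0.28. At an average log2 CPM of at least 4, 57% of all genes and 23 of 24 members were called. Where the groups of a called gene are said below not to overlap, this only describes its libraries. Groups that do not overlap largely follow from the call, and their share over all genes was not counted.

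Ligands and receptors were split differently, although this difference was not tested. Among 26 tested ligands 8 rose and 13 fell, and among 22 tested receptors 10 rose and 9 fell. The filter needed about 0.876 CPM in 2 libraries. For 7 members both libraries of 1 group were below it, so they could be tested only because the other group was high. EFNB3, SEMA6A, SEMA6B, SEMA6C and SLIT3 passed through the Bromo+/- libraries alone, and EPHA1 and SEMA3D through the controls alone. EFNA3, SEMA4G and NTN1 also needed their higher group, since 1 library of the lower group was below the cutoff. These were EFNA3 in Bromo+/- replicate 2 (0.797 scaled CPM), SEMA4G in control replicate 1 (0.764) and NTN1 in control replicate 2 (0.605). Of all these, EFNB3, SEMA6B, SLIT3, EPHA1, SEMA3D, EFNA3 and SEMA4G are included in the counts above of members changed at least 2-fold. Their direction is therefore not independent of their entry into the test.

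**Figure D1:**
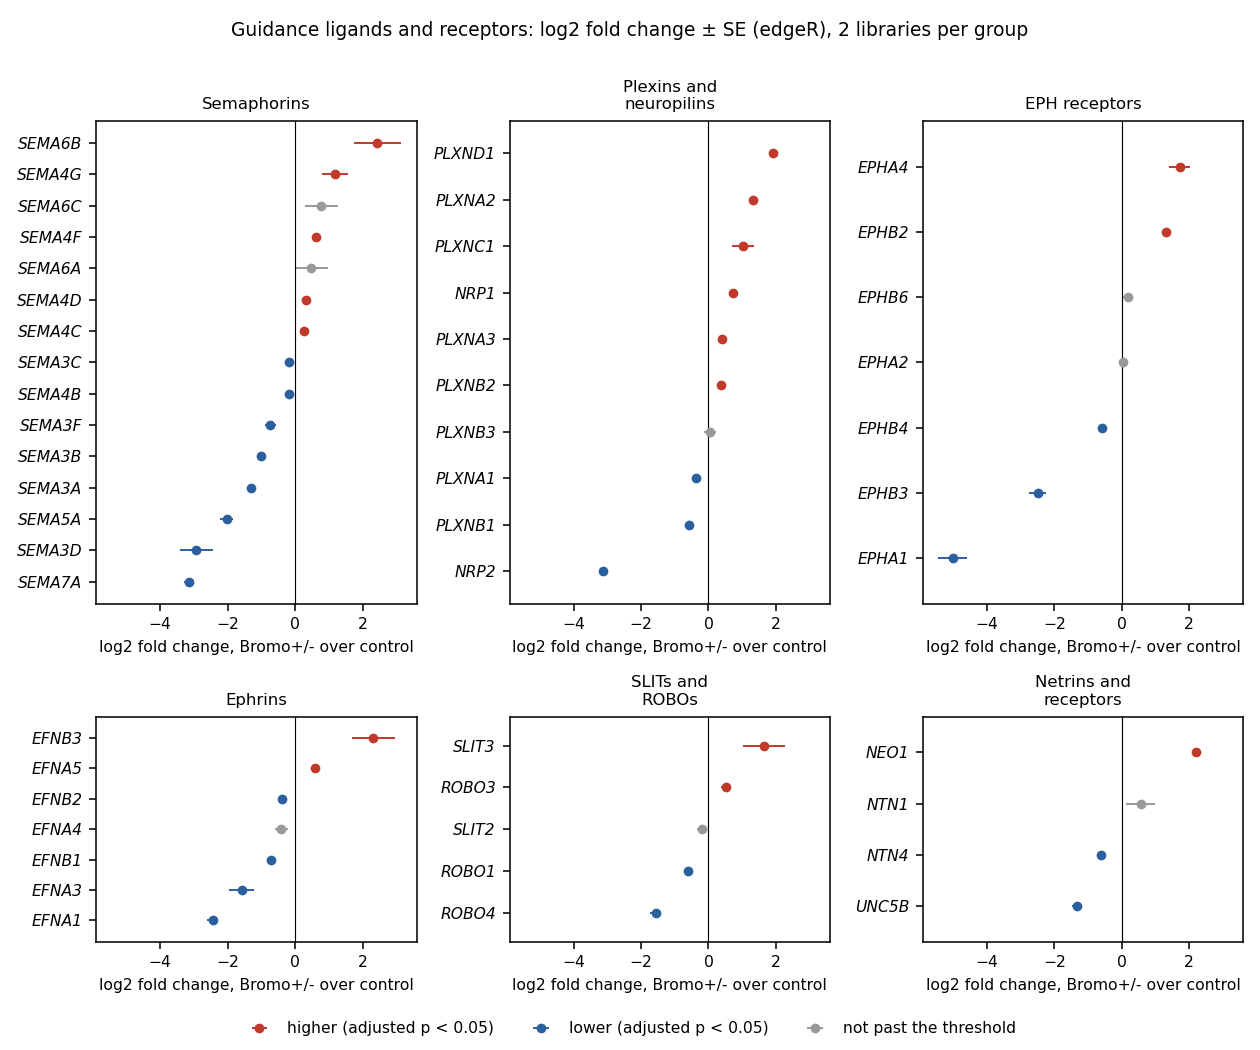
Log2 fold change of each tested guidance gene (x axis, Bromo+/- over control, bars are the standard error of the edgeR fit, 2 libraries per group), in panels by family. Points right of 0 are higher in Bromo+/-; the values run from -5.02 for EPHA1 to 2.43 for SEMA6B.

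Semaphorins are secreted, membrane-bound or lipid-anchored ligands that signal mainly through plexins. Of 20 listed, 15 were tested, 5 rose and 8 fell. The secreted class 3 semaphorins, which need a neuropilin to reach most class A plexins, all moved down where tested: 5 of 7 members were tested and the 5 fell. SEMA3A, the classical collapsing factor for growth cones (chromosome 7, 83955777 to 84492724, GRCh38), had 23.7 scaled CPM in both Bromo+/- libraries and 52.9 and 63.6 in the controls. Both control libraries lay above both Bromo+/- libraries by more than the replicates differed (log2 fold change -1.30, SE 0.09, adjusted p = 9.25e-35). SEMA3B, a secreted semaphorin often lost in tumours, had 8.72 and 9.21 scaled CPM against 19.0 and 16.9, groups that did not overlap, and fell 2.00-fold (adjusted p = 1.28e-11). SEMA3D, a class 3 ligand with a part in endothelial and neural crest guidance, had 8 and 3 counts in the Bromo+/- libraries and 29 and 51 in the controls. Its groups were apart although its replicates were uneven (log2 fold change -2.93, SE 0.48, adjusted p = 3.19e-12), and without Bromo+/- replicate 1 the log2 fold change was -3.72.

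The most abundant class 3 ligand per length changed least. SEMA3C, which is pro-migratory in several carcinomas, had 125 and 127 scaled CPM against 137 and 147, lower by a log2 fold change of -0.17 with SE 0.06 (adjusted p = 0.0103). This call was lost without control replicate 2 (adjusted p = 0.251), with upper quartile scaling (0.11), with library size alone (0.213) and with DESeq2 (0.0683). SEMA3F, a ligand that prefers NRP2, fell by 0.74 on the log2 scale (SE 0.15). On the CPM per kilobase scale SEMA3C made up 77.8% and 78.2% of the class 3 sum in the Bromo+/- libraries and 64.7% and 64.8% in the controls, while SEMA3A made up 9.86% and 9.74% against 16.7% and 18.8%.

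The membrane-bound class 4 semaphorins went the other way in 4 of the 5 tested, most of them by little. SEMA4G rose the most, from 0.764 and 1.12 scaled CPM in the controls to 2.61 and 1.68. The lower Bromo+/- library was still above both controls (log2 fold change 1.17, SE 0.38, adjusted p = 0.00367), but the call was lost without Bromo+/- replicate 1 (adjusted p = 0.183), without control replicate 1 (0.0886) and with DESeq2 (0.215). SEMA4G is also uncertain because 22.3% of its exon bases overlap exons of MRPL43 on the other strand, a gene with 2025 counts beside 72 for SEMA4G, and the strand setting of the counting is not given. SEMA4F rose by 0.63 on the log2 scale (SE 0.12, adjusted p = 2.57e-06). SEMA4D, the ligand of PLXNB1 that was first described on T cells, had a log2 fold change of 0.32 and SEMA4C, a ligand of class B plexins, of 0.25. Both calls were fragile: SEMA4D lost its call without Bromo+/- replicate 1 (adjusted p = 0.0589), without control replicate 2 (0.177) and with DESeq2 (0.21), and SEMA4C without any 1 of the 4 libraries (0.05 to 0.226), without a filter on low counts (0.0518) and with DESeq2 (0.319). SEMA4B, at -0.19, was lost without Bromo+/- replicate 1 (adjusted p = 0.287), control replicate 1 (0.176) or control replicate 2 (0.0764), under library size alone (0.226), with upper quartile scaling (0.136) and with DESeq2 (0.209).

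Among the remaining semaphorins SEMA7A fell the furthest. SEMA7A, a ligand tied to the membrane by a lipid anchor that binds integrins and PLXNC1 (chromosome 15, 74409289 to 74434467, GRCh38), had 4.65 and 5.67 scaled CPM in the Bromo+/- libraries and 45.1 and 47.0 in the controls. The replicates were close within each group and the groups lay 8.94-fold apart (log2 fold change -3.16, SE 0.15, adjusted p = 2.87e-70). SEMA5A, a transmembrane semaphorin with thrombospondin repeats that binds PLXNB3, had 3.83 and 2.83 scaled CPM against 13.9 and 13.6, and fell 4.09-fold (SE 0.20 on the log2 scale, adjusted p = 1.86e-23). SEMA6B, a transmembrane ligand of class A plexins, went up from 3 and 2 counts to 18 and 12 (log2 fold change 2.43, SE 0.70, adjusted p = 0.000109); its groups did not overlap, but with so few counts the call was lost with DESeq2 (adjusted p = 0.0676). SEMA6A and SEMA6C, at 0.478 to 1.06 scaled CPM, did not pass (log2 fold changes 0.48 and 0.78).

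**Figure D2:**
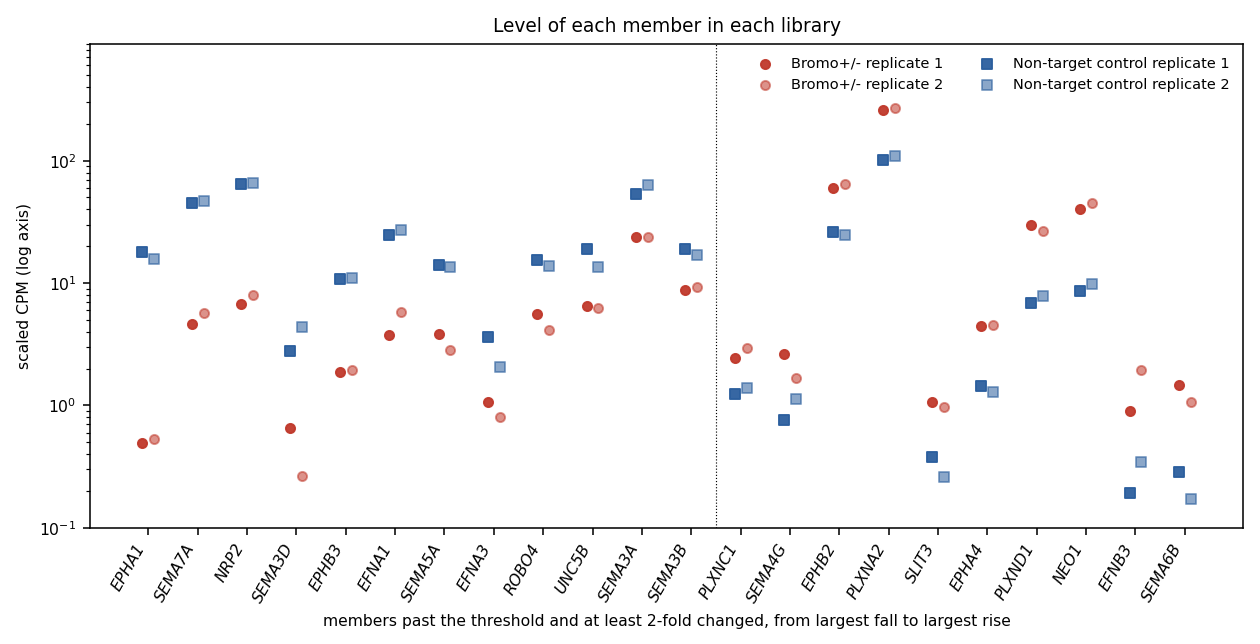
Scaled CPM (log axis) in each of the 4 libraries for the 22 members past the threshold and at least 2-fold changed, ordered from the largest fall to the largest rise. For each of these genes both Bromo+/- points (circles) lie on the same side of both control points (squares). This separation follows largely from how the genes were chosen.

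The neuropilins, co-receptors for class 3 semaphorins and for vascular endothelial growth factors, changed in opposite directions. NRP2 (chromosome 2, 205681990 to 205798133, GRCh38) had 6.77 and 8.06 scaled CPM in the Bromo+/- libraries and 64.3 and 65.7 in the controls. Controls were far above both Bromo+/- libraries, 8.79-fold on average (log2 fold change -3.14, SE 0.13, adjusted p = 1.51e-81). NRP1 (chromosome 10, 33177492 to 33336262) was higher, at 205 and 215 scaled CPM against 122 and 133 (log2 fold change 0.72, SE 0.06, adjusted p = 1.02e-26). On the CPM per kilobase scale the sum of both was 18.3 and 19.2 against 15.3 and 16.3, while NRP2 contributed 2.66% and 3.02% of it in the Bromo+/- libraries and 30.3% and 29% in the controls. Neuropilin transcripts in the Bromo+/- libraries were thus almost wholly NRP1.

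Plexins are the signalling receptors for semaphorins and carry a GTPase-activating domain inside the cell. Of 9 listed, 8 were tested, 5 rose and 2 fell. PLXND1 (chromosome 3, 129555175 to 129606818, GRCh38), the receptor of SEMA3E in blood vessels, had 29.7 and 26.5 scaled CPM against 6.88 and 7.87. Every Bromo+/- value was over every control value (log2 fold change 1.93, SE 0.14, adjusted p = 1.85e-35). PLXNA2, a receptor for class 3 and class 6 semaphorins (chromosome 1, 208022242 to 208244320), had 261 and 270 scaled CPM against 102 and 109, a tight 2.52-fold rise (adjusted p = 2.23e-62). PLXNC1, the SEMA7A receptor, was low, at 2.45 and 2.92 scaled CPM against 1.24 and 1.38. It passed (log2 fold change 1.02, SE 0.33, adjusted p = 0.00426), but not without Bromo+/- replicate 2 (0.0674) or with DESeq2 (0.207).

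Changes of the other plexins were smaller. PLXNA3 rose by 0.39 and PLXNB2, a semaphorin receptor that is abundant in epithelia, by 0.36 on the log2 scale, PLXNA1 fell by 0.37 and PLXNB1 fell by 0.57, and PLXNB3 did not pass (7.09 to 8.88 scaled CPM over the 4 libraries, groups overlapping). The leading class A plexin shifted with these changes. As a share of class A plexin CPM per kilobase, PLXNA2 made up 43.9% and 47.0% in the Bromo+/- libraries and 22.1% in both controls, and PLXNA1 made up 43.2% and 40.5% against 66.0% and 66.3%. PLXNA3 stayed at 11.7% to 12.8%, and PLXNA4 had 5 counts in all.

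**Figure D3:**
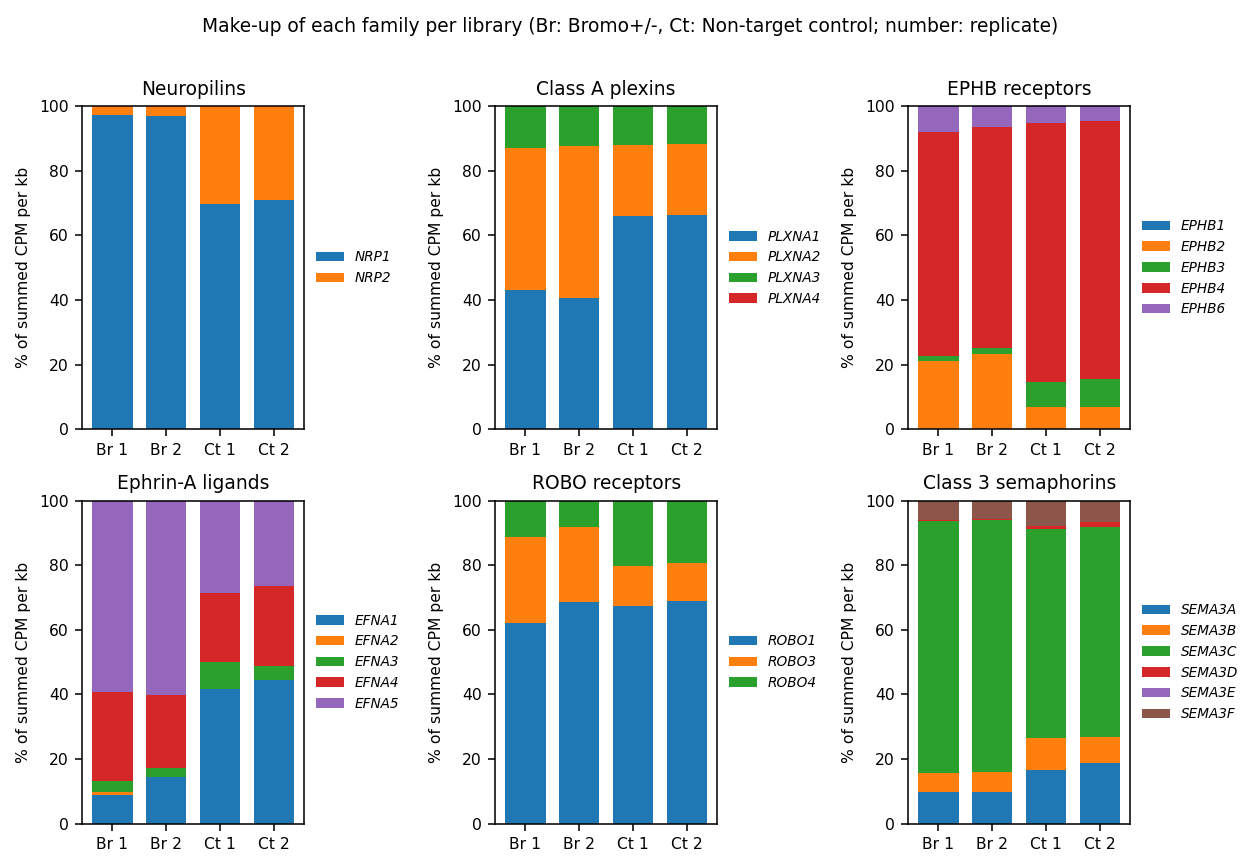
Share of each family's summed CPM per kilobase taken by each member (y axis, %), 1 bar per library. NRP2, EFNA1 and ROBO4 take smaller shares in the Bromo+/- bars and PLXNA2, EPHB2, EFNA5 and ROBO3 larger ones.

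Ephrins are the membrane-held ligands of EPH receptors, the A class anchored by a lipid and the B class spanning the membrane. Of 8 listed, 7 were tested, 2 rose and 4 fell. EFNA1, a high-affinity ligand of EPHA2 (chromosome 1, 155127460 to 155134857, GRCh38), had 3.75 and 5.85 scaled CPM in the Bromo+/- libraries and 24.5 and 27.2 in the controls. The replicates of Bromo+/- were less alike than those of the controls, but the groups were well apart (log2 fold change -2.44, SE 0.16, adjusted p = 1.9e-41). EFNA3, which lies 39.9 kb from EFNA1, had 1.06 and 0.797 scaled CPM against 3.63 and 2.08, and fell 2.99-fold (SE 0.37 on the log2 scale, adjusted p = 2.69e-05). Its level is uncertain, because 44.7% of its exon bases are shared on the same strand with the read-through gene EFNA4-EFNA3, listed at 0 counts. EFNA4, 9.3 kb beyond EFNA3, had 5.79 and 4.52 scaled CPM against 6.21 and 7.52 and did not pass (log2 fold change -0.41, SE 0.19, adjusted p = 0.0547), although it did without Bromo+/- replicate 1 (0.0268) or without control replicate 1 (0.0394).

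EFNA5, a ligand that binds EPHB2 as well as EPHA receptors, was the A-class ephrin that rose, from 37.8 and 36.5 to 56.3 and 54.3 scaled CPM (log2 fold change 0.58, SE 0.08, adjusted p = 6.05e-11). With EFNA1 lower and EFNA5 higher, EFNA5 made up 59.3% and 60.2% of ephrin-A CPM per kilobase in the Bromo+/- libraries and 28.7% and 26.5% in the controls, while EFNA1 made up 8.86% and 14.6% against 41.8% and 44.4%. The B class was led by EFNB2, a ligand of EPHB4 in vessels, which fell by 0.38, and EFNB1 fell by 0.70 on the log2 scale. EFNB3, best known from the spinal cord midline, had 11 and 22 counts in the Bromo+/- libraries and 2 and 4 in the controls. Its groups did not overlap (log2 fold change 2.32, SE 0.65, adjusted p = 9.64e-05), but the call was lost without Bromo+/- replicate 2 (1.68, adjusted p = 0.0743) and with DESeq2 (0.063).

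EPH receptors are the largest family of receptor tyrosine kinases. Of 14 listed, 7 were tested, 2 rose and 3 fell, while EPHA3, EPHA6, EPHA7, EPHA8 and EPHA10 had no count in any library, where 3 counts would be 0.251 to 0.277 CPM. EPHA1, which passed the filter through the controls only, fell the most of all tested members. This receptor, typical of epithelia (chromosome 7, 143390289 to 143408892, GRCh38), had 6 counts in each Bromo+/- library and 189 and 182 in the controls. In scaled CPM these were 0.489 and 0.531 against 18.1 and 15.7, 32.4-fold lower (log2 fold change -5.02, SE 0.43, adjusted p = 3.49e-51), with nothing between the groups. EPHB3, a receptor that positions cells along the intestinal crypt (chromosome 3, 184561784 to 184582409), had 1.87 and 1.95 scaled CPM against 10.7 and 11. Both controls lay above (log2 fold change -2.50, SE 0.25, adjusted p = 1.41e-24).

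EPHA4, a receptor that binds ephrins of both classes (chromosome 2, 221418027 to 221574202), rose from 1.43 and 1.30 to 4.48 and 4.52 scaled CPM. The replicates were nearly equal in each group (log2 fold change 1.72, SE 0.31, adjusted p = 2.68e-08). EPHB2 (chromosome 1, 22710839 to 22921500), a receptor of B-class ephrins and of EFNA5, had 60.3 and 64.4 scaled CPM against 26.0 and 24.6, groups without overlap (log2 fold change 1.30, SE 0.09, adjusted p = 8.04e-37). EPHB4 fell by 0.60 on the log2 scale (SE 0.06), from 158 and 146 to 103 and 97.3 scaled CPM. It still gave 69.4% and 68.3% of EPHB CPM per kilobase in the Bromo+/- libraries, where EPHB2 gave 20.9% and 23.2% beside 6.80% and 6.93% in the controls.

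EPHA2, the receptor of EFNA1 with the highest level per length of any member, did not pass. It had 298 and 281 scaled CPM in the Bromo+/- libraries and 284 and 278 in the controls, so the groups overlapped (log2 fold change 0.04, SE 0.05, adjusted p = 0.518). It gave 99.0% of EPHA CPM per kilobase in both Bromo+/- libraries and 94.5% and 95% in the controls, and the family sum was 72.3 and 68.2 against 72.3 and 70.3 CPM per kilobase. EPHB6, which lacks kinase activity, did not pass either (7.0 to 9.62 scaled CPM, log2 fold change 0.17).

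The upstream sequences of the 4 EPH receptors that changed at least 2-fold, EPHA1 and EPHB3 that fell and EPHA4 and EPHB2 that rose, are given because they are the sequences next to which these opposite changes were measured. Each stretch holds 210 bases, 5′ to 3′ on the gene's strand, and ends 40 bases before the RefSeq gene start (GRCh38.p14). EPHA4 and EPHB2 have 2 RefSeq starts each, and the start nearest the deposited 5′ end of the gene was used. Which start was in use in these cells was not measured. Capitals mark CACCTG, an E-box bound by repressors such as ZEB1 and SNAI1, and GGGCGG, a GC box bound by SP1, on either strand.
EPHA1, chr7:143408897-143409106, minus strand: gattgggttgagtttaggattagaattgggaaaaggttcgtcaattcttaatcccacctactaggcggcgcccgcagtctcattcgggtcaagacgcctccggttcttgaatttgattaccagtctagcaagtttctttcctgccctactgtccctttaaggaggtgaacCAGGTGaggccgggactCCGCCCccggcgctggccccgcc
EPHB3, chr3:184561535-184561744, plus strand: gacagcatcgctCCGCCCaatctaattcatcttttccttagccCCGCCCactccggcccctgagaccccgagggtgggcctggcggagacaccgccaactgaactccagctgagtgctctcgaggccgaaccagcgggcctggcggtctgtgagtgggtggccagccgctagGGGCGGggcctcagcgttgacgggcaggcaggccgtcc
EPHA4, chr2:221574243-221574452, minus strand: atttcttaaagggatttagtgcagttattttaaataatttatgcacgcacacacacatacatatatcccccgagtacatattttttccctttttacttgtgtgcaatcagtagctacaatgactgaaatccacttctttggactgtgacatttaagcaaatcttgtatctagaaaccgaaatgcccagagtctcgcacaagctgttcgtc
EPHB2, chr1:22710589-22710798, plus strand: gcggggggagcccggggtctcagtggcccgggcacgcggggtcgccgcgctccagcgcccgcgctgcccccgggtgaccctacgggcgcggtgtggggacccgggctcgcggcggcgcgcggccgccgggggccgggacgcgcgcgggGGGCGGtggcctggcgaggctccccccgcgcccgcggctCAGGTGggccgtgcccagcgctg
EPHA1, which fell, and EPHB2, which rose, each held 1 CACCTG match, starting 80 and 63 bases before the gene start. Any relation of these motifs to the changes was not tested. Within the printed bases EPHB3 held 3 GC boxes, EPHA1 and EPHB2 1 each and EPHA4 neither motif. With the 40 unprinted bases included, EPHA1 held 5 GC boxes and EPHA4 held 1. In the printed bases the share of G and C bases was 37.1% for EPHA4, 54.8% for EPHA1, 68.1% for EPHB3 and 86.2% for EPHB2.

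A RefSeq entry was found for 61 of the 72 members. The 250 bases before the start nearest the deposited 5′ end were searched on both strands. For some members even the nearest start lay far from that end. The distance was 404185 bases for ROBO2, 197459 for EPHB1, 72218 for PLXNA4 and 24316 for SEMA4B, and these windows are included below. CACCTG was found in 1 of 8 members that rose at least 2-fold, in 2 of 10 that fell at least 2-fold, in 5 of 23 other members tested, in 11 of all 61, and in 17.5% of 35116 windows of the same length from the whole table. GGGCGG was found in 7 of the 8, 9 of the 10, 19 of the 23, 45 of the 61 and 42.6% of all windows. The AP-1 motif TGANTCA was found in 0 of 61 members and 6.57% of all windows, TATAAA in 1 member and 10.7%, and CCAAT in 34.4% of members (1 of the 8, 3 of the 10, 11 of the 23) and 32% of all windows. The comparison is not like for like. Each member gave 1 window, while the whole table can hold several starts of the same gene and was not limited to genes expressed here. A match describes letters only, and whether a factor bound there was not measured.

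SLIT proteins are secreted repellents, and ROBO proteins are their receptors. SLIT2, the main SLIT here, had 12.4 and 15.7 scaled CPM against 16.0 and 16.2 and did not pass (log2 fold change -0.20, adjusted p = 0.164), although it did without Bromo+/- replicate 2 (0.0274). SLIT3 had 13 and 11 counts in the Bromo+/- libraries and 4 and 3 in the controls. It passed (log2 fold change 1.65, SE 0.62, adjusted p = 0.00813), but not without Bromo+/- replicate 1 (0.0778), control replicate 1 (0.0568) or control replicate 2 (0.164), nor with DESeq2 (0.258).

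ROBO1, the main SLIT receptor here, fell by 0.61 on the log2 scale, from 79.4 and 75.4 to 48.1 and 53.3 scaled CPM. ROBO4, a receptor best known from endothelium (chromosome 11, 124883691 to 124898500, GRCh38), had 5.54 and 4.16 scaled CPM against 15.4 and 13.7. Its groups did not overlap, with a 2.96-fold fall (SE 0.17 on the log2 scale, adjusted p = 5.69e-18). ROBO3, a receptor of commissural axons that lies 2.2 kb from ROBO4, had the opposite direction, at 13.3 and 11.7 scaled CPM against 9.36 and 8.30. Its log2 fold change was 0.51 (SE 0.15, adjusted p = 0.00179), and the call was lost without control replicate 2 (0.0636) and with DESeq2 (0.153). ROBO3 made up 26.6% and 23.2% of ROBO CPM per kilobase in the Bromo+/- libraries and 12.3% and 11.7% in the controls, and ROBO4 made up 11.1% and 8.27% against 20.2% and 19.3%.

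Netrins are laminin-related ligands. NTN4, a basement membrane netrin that binds laminin, was the most abundant netrin per length and fell by 0.62 on the log2 scale (SE 0.06, adjusted p = 9.69e-18), from 121 and 133 to 83.6 and 82.1 scaled CPM. NTN1, the ligand of DCC, NEO1 and UNC5 receptors, did not pass (0.605 to 1.47 scaled CPM, log2 fold change 0.56). NEO1, which encodes neogenin, a receptor for netrins and for repulsive guidance molecules (chromosome 15, 73051710 to 73305206, GRCh38), had 40 and 44.8 scaled CPM against 8.69 and 9.77. Both Bromo+/- libraries were far above both controls (log2 fold change 2.19, SE 0.12, adjusted p = 5.19e-51). UNC5B, a repulsive netrin receptor, had 6.52 and 6.29 scaled CPM against 19.0 and 13.5, a 2.52-fold fall that exceeded the spread of the uneven controls (SE 0.16 on the log2 scale, adjusted p = 3.69e-15). DCC, the classical attractive netrin receptor, had no count in any library.

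Of the 24 members not tested, 10 had no count at all: EPHA3, EPHA6, EPHA7, EPHA8, EPHA10, SEMA3G, ROBO2, UNC5D, NTNG2 and DCC. Only 3 had 10 or more counts over the 4 libraries. UNC5A had 9 and 12 counts in the Bromo+/- libraries and 2 and 1 in the controls, UNC5C had 11 and 3 against 7 and 5, and SEMA4A had 3 and 0 against 6 and 7. The other 11 had 1 to 7 counts in all, and among them SEMA6D had 4 and 3 counts against 0 and 0.

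Ligands can be set beside the receptors they are known to bind. SEMA7A fell 8.94-fold while its receptor PLXNC1 was at 2.92 scaled CPM or less in each library. SEMA3F, which prefers NRP2, was lower together with NRP2. SEMA3A, another neuropilin ligand, was also lower, while NRP1, PLXNA2 and PLXNA3 were higher and NRP2 and PLXNA1 lower. SEMA4D had a log2 fold change of 0.32, a call not kept under every alternative, and its receptor PLXNB1 of -0.57. EFNB2 (-0.38) and EPHB4 (-0.60) both fell. SEMA5A fell while PLXNB3 did not pass. EFNA1 fell 5.44-fold while its receptor EPHA2 did not pass, and of the receptors that EFNA5 can bind, EPHB2 and EPHA4 rose with it, EPHA1 fell and EPHA2 did not pass. For NEO1, which rose 4.57-fold, the ligand NTN1 stayed at 1.47 scaled CPM or less, and its repulsive guidance ligand RGMA fell. The related RGMB did not pass, at 5.71 and 6.64 scaled CPM against 5.54 and 7.87 (log2 fold change -0.13).

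Between genes, levels were compared on the CPM per kilobase scale. EPHA2 was first in both groups, at a mean of 67.6 in the controls and 69.6 in the Bromo+/- libraries. EFNB2 (50.1) and PLXNB2 (40.1) followed in the controls and changed places in the Bromo+/- libraries, at 38.5 and 51.5. NTN4 was the fourth in the controls, at 30.5. The places after it, EPHB4 at 24.5 and 22.7, PLXNA1 at 22.1 and 23.7, and SEMA3C at a mean of 22.7, were within the spread of their libraries. SEMA7A went from rank 10 to 30 among tested members, NRP2 from 19 to 35, EPHA1 from 22 to 45 and EFNA1 from 11 to 23. Moving the other way, NEO1 went from rank 36 to 15, PLXND1 from 38 to 21, EPHB2 from 29 to 16 and PLXNA2 from 14 to 6.

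**Figure D4:**
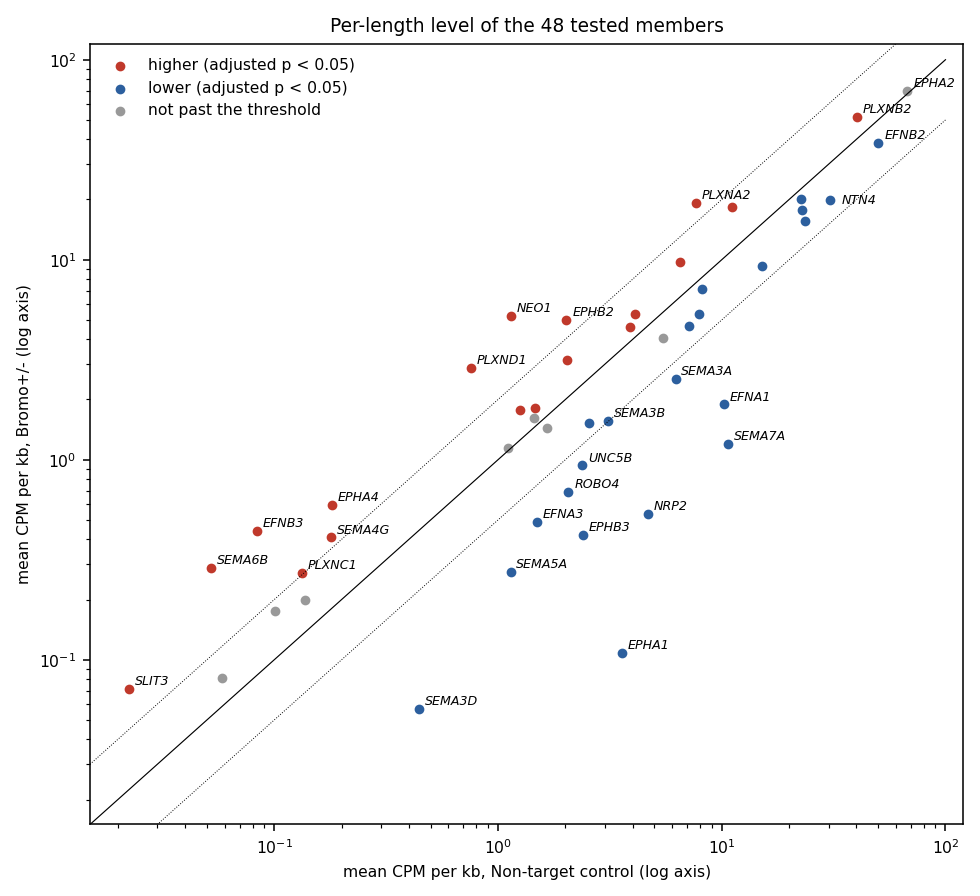
Mean CPM per kilobase of the 48 tested members in the controls (x) and in the Bromo+/- libraries (y), both on log axes, with the line of equal level and dotted lines at 2-fold. EPHA2 lies on the line at the upper end, and EPHA1 and, next, SEMA7A lie farthest below it.

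Some families summed to different totals in the 2 groups, while others overlapped. Summed ephrins were at 64.3 and 64.7 CPM per kilobase in the Bromo+/- libraries and 87.5 and 90.5 in the controls, and summed class 3 semaphorins at 25.7 and 25.9 against 33.9 and 36.1. Summed plexins were higher, at 106.7 and 100.3 against 83.5 and 85.9. In none of these 3 families did the groups overlap. The groups did overlap for EPHA receptors (72.3 and 68.2 against 72.3 and 70.3) and for SLITs (1.37 and 1.70 against 1.69 in both controls). The ratio between groups was also taken with DESeq2 size factors and with library size alone, for families of at least 2 members with counts in both groups. Each family thus counts once per scaling. In 11 of these comparisons the ratio moved by at least the spread of the family's libraries, and in 19 it did not. These sums are given as a description, with no test.

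Several members are neighbours in the genome. EFNA1, EFNA3 and EFNA4 lie within 1 cluster on chromosome 1, and the first pair fell while EFNA4, with a log2 fold change of -0.41, did not pass. SEMA3F and SEMA3B, 78.5 kb apart on chromosome 3, both fell, as did SEMA3A and SEMA3D, 502.8 kb apart on chromosome 7. EPHA1 fell and EPHB6, 519.2 kb away, did not pass. NEO1 and SEMA7A, 1.1 Mb apart on chromosome 15, moved in opposite directions, as did ROBO3 and ROBO4.

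The other genes of these pathways were taken from a list of 72 co-receptors, adaptors and cytoskeletal effectors. Of these 60 were tested, 20 rose and 25 fell (75% called, beside 53.5% of all genes tested), but only 4 rose and 6 fell at least 2-fold, or 16.7% beside 15%. FLRT2, a membrane protein that binds UNC5 receptors, had 17.9 and 21.3 scaled CPM against 4.20 and 5.62 (log2 fold change 1.98, SE 0.17). FYN, a SRC-family kinase downstream of plexins and DCC, had 9.62 and 8.24 against 4.11 and 2.68 scaled CPM (1.41, SE 0.21). Both rose with no overlap between groups. DPYSL3, a collapsin response mediator that acts on the cytoskeleton in semaphorin signalling, had 102 and 103 scaled CPM against 42.3 and 43.1 (log2 fold change 1.26, SE 0.07), and CDK5, a kinase that phosphorylates those mediators, 19.4 in both against 10.2 and 9.77 (0.96, SE 0.13).

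Among partners that fell, RGMA, the repulsive guidance molecule that binds NEO1, fell furthest. It had 1.06 and 0.531 scaled CPM against 11.7 and 12.1 (log2 fold change -3.87, SE 0.35), the reverse of its receptor NEO1. FLRT3, a paralog of FLRT2, had 5.62 and 5.67 scaled CPM against 42.3 and 41.1 (-2.88, SE 0.14), so the FLRT pair was also split. SRGAP3, a RAC GTPase-activating protein of the SLIT and ROBO pathway, had 4.08 and 3.01 against 15.2 and 14.2 scaled CPM (-2.04, SE 0.19), and RHOD, a small GTPase that binds plexins, 48.5 and 40.6 against 116 and 118.5 (-1.39, SE 0.07). Each of these 8 partners kept its call under every alternative tried. Of the common GTPases and their kinases, CDC42 fell by 0.27 and ROCK2 fell by 0.23 on the log2 scale, while RHOA (-0.05), RAC1 (-0.05) and ROCK1 (-0.08) did not pass. The ROCK2 call was lost without control replicate 2 (adjusted p = 0.187).

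**Figure D5:**
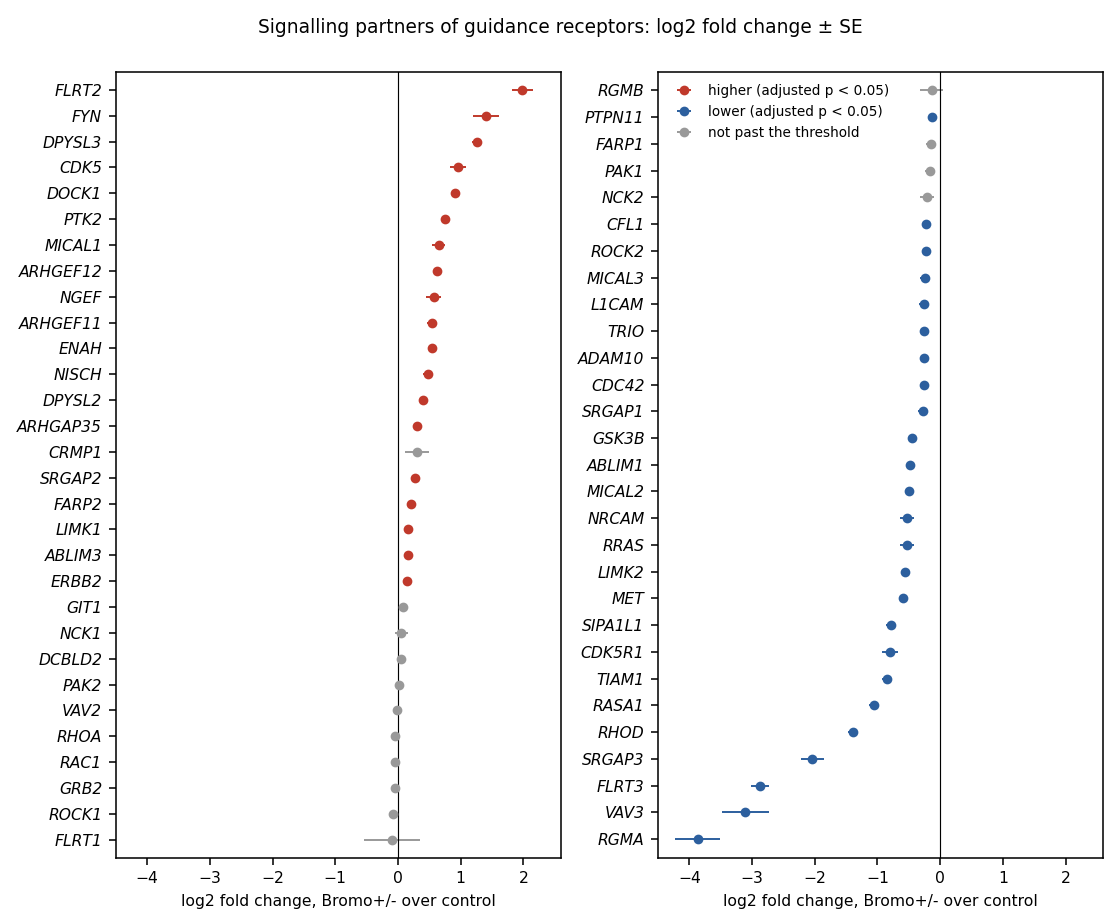
Log2 fold change (x axis, bars are the standard error) of the tested signalling partners, except 1 with no count in the controls. They are ordered from the largest rise, at the top left, to the largest fall, at the bottom right. The panels are not split at 0. Most points lie within 1 log2 unit of 0, with FLRT2 at 1.98 and RGMA at -3.87 at the ends.

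Markers of cell types in which guidance genes are well known were measured beside them. Of 12 neuronal markers 3 were tested: MAP2 rose and SYT1 fell, TUBB3 passed only narrowly (adjusted p = 0.0445, lost under 6 alternatives with an adjusted p of up to 0.436), and STMN2, NEFL, NEFM, ELAVL4 and DCX had no count. The neuronal list summed to 93.2 and 90.2 scaled CPM in the Bromo+/- libraries and 28.2 in both controls, of which MAP2 was most: the other 11 markers summed to 6.19 and 6.47 against 11 and 7.78. Of 10 endothelial markers 4 were tested, with VWF and TIE1 at 0 counts and sums of 24.5 and 19.9 against 27.8 and 25.4. Without ROBO4, itself a guidance gene, the endothelial sums turned to 19 and 15.8 against 12.4 and 11.8. KDR and EGFL7 had log2 fold changes of 1.40 and 0.62 and passed, but each lost its call in at least 1 alternative (adjusted p of up to 0.218 and 0.0758), and PECAM1 did not pass. Of 10 fibroblast markers 4 were tested: COL1A1, DCN and POSTN rose and FAP fell, COL3A1 and LUM had no count, and the sums were 141 and 140 against 43.6 and 41.7. Of 10 leukocyte markers 4 were tested and fell, CD14 not in every alternative (adjusted p of up to 0.13, sums 9.13 and 7.79 against 37.8 and 36.7), with CD3E and MS4A1 among those at 0, and of 5 glial markers none was tested, with SOX10 at 0. The part of other cell types in the changes of guidance genes was not tested. Counts of mitochondrial genes were 5.05% and 5.18% of the Bromo+/- libraries and 4.32% and 4.21% of the controls, and their relation to these changes was not tested.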

How the data were processed

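RNA from 4 libraries of MCF10AT cells (2 Bromo+/-, 2 Non-target control) was made into libraries with a stranded mRNA kit, per the labels' protocols. The table deposited by the authors holds raw counts for each Ensembl gene, not normalized. Per the submitters' processing notes, STAR (version not given in the sources used here), featureCounts 1.5.2 and GRCh38 were used. No source used here gives the annotation release, strand setting or handling of multiply mapped reads, so overlapping genes may share or lose reads. Column names gave the samples, the WT columns being the controls, since the other columns abbreviate Bromo. Of 58233 identifiers, 57392 were named from current symbols and 503 from GENCODE release 29, and 338 had no name.

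Counts were tested with edgeR 4.0.16 in R 4.3.3: filterByExpr (13179 genes), TMM scaling, and the quasi-likelihood test in its robust form (2 residual degrees of freedom), with a Benjamini-Hochberg adjusted p under 0.05 as the threshold. Log2 fold changes and their standard errors are those of the fit, and folds are their antilogs. Scaled CPM divides counts by the TMM-scaled library size, and CPM per kilobase divides that by the gene length deposited by the authors. The total of 10835237 to 11975396 counts per library makes 3 counts equal to 0.251 to 0.277 CPM, a limit that covers counting error only. Replicates had a common biological coefficient of variation of 3.52%. The fitting script was tested on simulated data.

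The members and lists were chosen with earlier results of these data known. Members past the threshold and at least 2-fold changed are given with every library, other members with a fold change or range, and untested members with counts if they had 10 or more. Partners named are the 4 higher and 4 lower with the largest changes at an average log2 CPM of at least 2. RHOA, RAC1, CDC42, ROCK1 and ROCK2 were named outside this rule, after their values were seen. Alternatives were other scalings, other filters, DESeq2 1.42.0, a replicate block and leaving out each library. Promoter sequences are from RefSeq (GRCh38.p14), with 61 members matched and 11 not.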

Additional observations from a re-analysis of the deposited data

How the results depend on the processing

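Of the 40 members called, 30 kept their direction and their call under all 11 alternatives, 17 of them at least 2-fold changed. The other 10, whose values are given with each gene, lost it under at least 1. With the DESeq2 Wald test 10 members were called higher and 20 lower, and 4457 of all genes, beside 18, 22 and 7055 with edgeR; the cause was not tested. Leaving out each library in turn gave 14 to 16 members higher and 20 to 23 lower, 5551 to 6641 of all genes, and 16 to 19 partners higher and 21 to 26 lower. Without Bromo+/- replicate 1, 3 members that had not passed changed sign. Their log2 fold changes over the 4 left-out libraries ran from -0.0022 to 0.0807 for EPHA2, from -0.0118 to 0.3233 for EPHB6 and from -0.1322 to 0.1927 for PLXNB3.

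Scaling moved the balance of directions over all genes. With TMM 49.4% of called genes were higher, with library size alone 61.3% (4433 higher, 2794 lower) and with upper quartile scaling 58.1%, while members stood at 19 higher and 20 lower and at 18 and 20. Library size alone shifted the median log2 fold change of all genes to 0.09, put EPHA2 past the threshold (adjusted p = 0.0316), and turned the log2 ratio of the EPHA family sum from -0.02 to 0.06. Without a filter 62 members could be tested (19 higher, 23 lower), and with a minimum sum of 40 counts 43 (15 higher, 22 lower). With the replicate block 18 members were higher and 22 lower, and 7271 of all genes passed. The labels do not say that a replicate number marks anything shared, and the deviations of same-numbered libraries had a correlation of 0.0484.

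Depth limits the members under about 1 scaled CPM, whose counts per library are few. With 2 libraries per group, a member that did not pass is not shown to be equal.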

Other observations

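Among the guidance partners below the level used for naming, DRAXIN, a secreted netrin antagonist that binds DCC, had 12 and 16 counts in the Bromo+/- libraries and 0 in both controls. Against a floor of 3 counts over the control group it was at least 8.73-fold higher. VAV3, a guanine nucleotide exchange factor downstream of EPH receptors, fell by 3.11 on the log2 scale. Both genes were chosen after their values were seen. SEMA6D, not tested, was at least 2.18-fold higher by the same floor, from 7 counts in all.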
